A study of Mus musculus and Homo sapiens with 9 samples.

Results

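The genes described here are the 10 core subunits of the mitotic cohesin and condensin complexes, which were chosen by symbol. Cohesin was represented by SMC1A, SMC3, RAD21, STAG1 and STAG2, and condensin by SMC2, SMC4, NCAPD2, NCAPG and NCAPH. All 10 had a row among the 64252 rows of the human count table, and the same 10 symbols in mouse case had a row among the 43432 rows of the mouse table. Each of them passed the filter on low counts, which left 15819 human and 15350 mouse genes for testing. The study sequenced RNA to learn which genes respond when the transcriptional cofactor IRF2BP2 is lost in leukemic and in normal T cells. J.gamma1 is a T-cell acute lymphoblastic leukemia line derived from Jurkat, and its cells carried either a control hairpin (shNC, 2 libraries) or a hairpin against IRF2BP2 (shIRF2BP2, 2 libraries), delivered in both cases with the lentiviral vector pLKO.1 and selected with puromycin. Which of the study's hairpins the sequenced cells carried is not given in the sources used here, and the libraries come from a single line. The mouse cells were CD3+ T cells, sorted magnetically from the spleens of mice sacrificed at 6 weeks of age, with 2 Irf2bp2 KO libraries (Vav-iCre+/-;Irf2bp2 fl/fl) and 3 control libraries. The labels call these controls wild type, whereas the study's methods give them as Vav-iCre-/-;Irf2bp2 fl/fl, so that both groups would carry the floxed alleles. Vav-iCre is active throughout the hematopoietic lineage and not in T cells alone.

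Cohesin and condensin belong to the same family of ring-shaped, ATP-driven machines that shape chromosomes. In cohesin, the SMC1A and SMC3 arms are closed by the cleavable kleisin RAD21, to which either STAG1 or STAG2 binds; the ring holds sister chromatids together from S phase until anaphase and extrudes chromatin loops in interphase, so it is present in resting T cells as well. In condensin I, the SMC2 and SMC4 arms are closed by the kleisin NCAPH, and NCAPD2 and NCAPG bind to it; the complex compacts chromosomes in mitosis. SMC2 and SMC4 are shared with condensin II, which has its own 3 regulatory subunits.

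The libraries held 16668577 to 37177523 counts in total, and control replicate 3 of the mouse cells was the shallowest. IRF2BP2 itself had 204 and 199 CPM (counts scaled to TMM-adjusted library sizes) in the shNC libraries and 79.0 and 93.8 CPM in the shIRF2BP2 libraries, while mouse Irf2bp2 had 1915 to 4594 counts in the controls and 0 counts in both knockout libraries. Of the T cell markers, all 8 were detected in each species. In J.gamma1 cells, CD3D was called lower and CD28 higher with shIRF2BP2. The erythroid list summed to 0.645 and 1.20 CPM with shNC and 0.305 and 0.618 CPM with shIRF2BP2, with ALAS2 at 0, and the myeloid list to at most 0.814 CPM, with CSF1R, LYZ and S100A8 at 0. The B cell list summed to 50.2 and 64.9 CPM with shNC and 15.6 and 18.0 CPM with shIRF2BP2, and CD79A was called lower. The part of these genes in the results was not tested. In the mouse libraries, the 9 erythroid markers with a row summed to 390 to 1456 CPM in the controls and 3096 to 4291 CPM in the knockouts, and 5 of them were called higher. The labels do not say whether the libraries of a group came from separate cultures or animals, so the p-values below measure only the spread between these libraries.

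In J.gamma1 cells, SMC1A was the sole subunit called different between the hairpins. A call here means a Benjamini-Hochberg adjusted p under 0.05 over all genes tested, from edgeR's quasi-likelihood fit, and a log2 fold change no smaller than 0.5 in either direction. SMC1A (ENSG00000072501, hg38 chrX:53374149-53422728, minus strand), one of the 2 ATPase arms of cohesin, had 302 and 241 CPM in the shNC libraries and 121 and 129 CPM in the shIRF2BP2 libraries. The groups were far apart, with 7465 and 7826 counts against 3514 and 3805. Its level was 0.460-fold that of the control (95% interval 0.365 to 0.580), a log2 fold change of -1.12 (SE 0.145, adjusted p = 0.00403 by edgeR). Across all genes tested, 5.01% were called lower and 5.46% higher. SMC1A was called under each of the 12 alternative analyses, at log2 fold changes of -1.28 to -0.95.

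Its partner SMC3 (ENSG00000108055, hg38 chr10:110567684-110606048) gave no such difference. SMC3 had 181 and 158 CPM in shNC cells and 172 and 167 CPM in shIRF2BP2 cells, so that the treated libraries lay inside the range of the controls. The log2 fold change was -0.000745 (95% interval -0.29 to 0.28). Within each library, the ratio of SMC1A to SMC3 per kilobase of merged exons was 2.39 and 2.18 with shNC and 1.01 and 1.11 with shIRF2BP2. The size of this ratio depends on the transcript length used, and over the transcript with the longest coding sequence it was 0.951 and 0.865 against 0.400 and 0.439.

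RAD21, the kleisin that separase cuts at anaphase, had 957 and 962 CPM in shNC libraries and 979 and 990 CPM in shIRF2BP2 libraries. The groups did not overlap, but the difference was small, with a log2 fold change of 0.04 (95% interval -0.26 to 0.33, adjusted p = 0.887 by edgeR). STAG1, one of the alternative STAG subunits, had 148 and 105 CPM against 190 and 152 CPM. Both treated libraries were above both controls, at a log2 fold change of 0.43 (95% interval 0.01 to 0.86) that did not pass the adjustment over all genes (adjusted p = 0.174 by edgeR). STAG2, a subunit often mutated in cancer, had 467 and 373 CPM against 521 and 504 CPM. It too was higher in both treated libraries, at a log2 fold change of 0.29 (95% interval -0.05 to 0.63, adjusted p = 0.245 by edgeR). Neither gene was called with all 4 libraries. Without shNC replicate 1, the edgeR adjusted p was 0.00455 for STAG1 and 0.0246 for STAG2, and over all alternatives it ranged from 0.00455 to 0.622 for STAG1 and from 0.0246 to 0.629 for STAG2. In that omission STAG1 met the fold threshold too, at a log2 fold change of 0.69, whereas STAG2 did not, at 0.46. STAG1 shares 1661 exonic bases with PCCB on the opposite strand, and whether strand was used in counting is not given in the sources used here.

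The condensin subunits lay on the low side in 4 of 5 cases, and none was called. By edgeR's quasi-likelihood test, 1 of the 5 was lower and 0 higher at an unadjusted p under 0.05. The share of all genes at that level was not counted. DESeq2 called 0 of the 5, while over all genes tested it called 6.46% higher and 6.07% lower. NCAPG (ENSG00000109805, hg38 chr4:17810979-17844865), a HEAT-repeat subunit of condensin I, had 247 and 269 CPM with shNC and 188 and 187 CPM with shIRF2BP2. The treated libraries nearly coincided and were below both controls. Its log2 fold change of -0.46 (SE 0.119, 95% interval -0.74 to -0.19) passed the adjusted p alone (0.0456 by edgeR) but not the fold threshold. By adjusted p alone, 5.32% of all genes were lower and 5.83% higher. Without either of the shIRF2BP2 libraries the adjusted p of NCAPG rose to 0.227 and 0.232, within a range of 0.00442 to 0.232 over the alternatives. Of its exonic length of 4847 bases, 1634 are shared with LCORL on the opposite strand, and LCORL had a log2 fold change of 0.42.

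The remaining condensin subunits differed by less. SMC2, one condensin ATPase arm, had 426 and 345 CPM against 324 and 300 CPM, a log2 fold change of -0.30 (95% interval -0.64 to 0.03). NCAPD2, the other HEAT-repeat subunit, had 249 and 286 CPM against 214 and 223 CPM, a log2 fold change of -0.29 (95% interval -0.58 to 0.004). NCAPH, the kleisin, had 131 and 146 CPM against 117 and 118 CPM, a log2 fold change of -0.24 (95% interval -0.51 to 0.04). In these 3 genes both treated libraries were below both controls, and the gap between the nearest libraries of the groups was smaller than the gap between the shNC libraries. SMC4, the second ATPase arm, went the other way, with 551 and 462 CPM against 579 and 562 CPM and a log2 fold change of 0.17 (95% interval -0.15 to 0.49). Of its exonic length of 8164 bases, SMC4 shares 1553 with TRIM59 on the opposite strand. Over the 10 subunits, the shIRF2BP2 libraries were both above the controls for 4 genes and both below for 5. With 2 libraries a group such a pattern was common, since 29.6% of all genes tested had treated libraries all above and 28.7% all below. The median log2 fold change was 0.04 for cohesin and -0.29 for condensin, against 0.01 for all genes tested. For comparison, the 23 proliferation genes had a median of -0.31, with 3 called lower (CDK1, PCNA and MCM3).

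**Figure D1:**
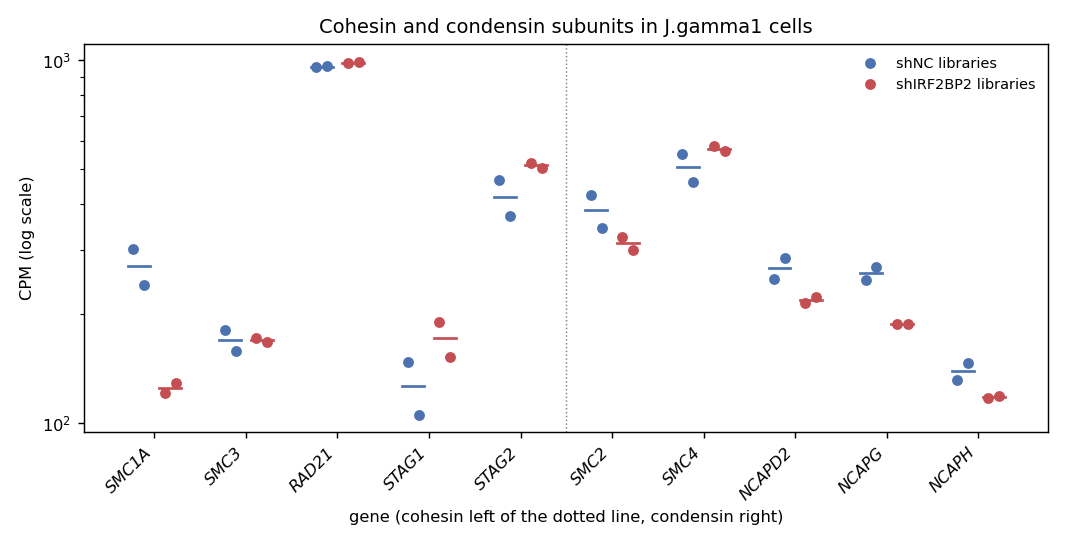
CPM of each subunit on a log axis in the 2 shNC (blue) and 2 shIRF2BP2 (red) libraries of J.gamma1 cells, where each point is a library and each short line a group mean. The red points of SMC1A sit at 121 and 129 CPM, well below the blue points at 241 and 302 CPM, while the other subunits differ by much less.

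SMC1A also stood apart in its transcript. Words related to GGTCTA in the 3′ UTR had been picked out in earlier work on these same values as marking genes that were lower with shIRF2BP2, so what follows is a description and no test. In the canonical transcripts of GENCODE 44, SMC1A was the only one of the 10 subunits whose 3′ UTR held GGTCTA, with 2 copies, 1 of them inside the longer word AGGTCTAA at position 2001 of a 3′ UTR of 5954 bases. That 3′ UTR is also the longest of the 10. The site is shown with the word in capitals, as a feature, beside that length, by which SMC1A differs from the other members.
SMC1A 3′ UTR site: ggttgatctgAGGTCTAAcattgttatc
Among the 205 tested genes that held AGGTCTAA, 22.4% were called lower and 2.93% higher. Among 891 genes with AGGTCTA or GGTCTAA but not AGGTCTAA, 18% were lower and 4.83% higher. For 907 genes with GGTCTA alone, the form of the other copy in SMC1A, these shares were 9.04% and 7.06%. The 10623 genes with none of these words had 4.33% lower and 6.66% higher. These shares take no account of 3′ UTR length. The part of these words in the level of SMC1A was not tested, and the sequence of the hairpin was not used here.

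Genes that work with the complexes were counted from a list of 32. Of these, 31 were tested in J.gamma1 cells, and 1 was called higher and 1 lower. Both belong to the meiotic form of cohesin. Over all genes tested in these cells, 5.46% were called higher and 5.01% lower. SMC1B, the meiotic counterpart of SMC1A, had 29.6 and 30.2 CPM with shNC and 17.7 and 18.7 CPM with shIRF2BP2, and fell with a log2 fold change of -0.72 (SE 0.140, adjusted p = 0.0187 by edgeR). REC8, the meiotic kleisin, was low, with 31 and 38 counts against 86 and 98 counts. It rose with a log2 fold change of 1.37 (SE 0.337, adjusted p = 0.0400 by edgeR). Neither was called when either shIRF2BP2 replicate was left out, and REC8 was not called when either shNC replicate was left out. These fits leave a group with 1 library, and the partners called changed between them. The loading factors NIPBL and MAU2 had log2 fold changes of 0.46 and 0.39, and the 3 subunits particular to condensin II, which are NCAPD3, NCAPG2 and NCAPH2, had -0.35, -0.44 and 0.06. None of these 5 was called by edgeR or by DESeq2, though at an unadjusted p under 0.05 edgeR placed 2 loaders higher and 2 condensin II subunits lower. At that level the share of all genes was not counted. The median over the 31 genes was -0.03.

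In mouse T cells, 2 of the 5 condensin subunits, Smc2 and Ncapg, were called higher in the Irf2bp2 knockout, and Ncapd2 passed by the adjusted p alone. No cohesin subunit was called. For the mouse cells a call means the same adjusted p by edgeR and a log2 fold change no smaller than 1 in either direction. Among all genes tested, 2.47% were called higher and 0.111% lower, and by adjusted p alone 2.68% were higher and 0.15% lower.

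Smc2 (ENSMUSG00000028312, mm10 chr4:52439243-52488260, plus strand) had 43.6, 43.0 and 45.7 CPM in the control libraries and 110 and 107 CPM in the knockout libraries. The 3 controls were nearly equal and lay far below both knockouts. The level was 2.46-fold that of the controls (95% interval 2.05 to 2.96), a log2 fold change of 1.30 (SE 0.111, adjusted p = 0.00760 by edgeR). Ncapg (ENSMUSG00000015880, mm10 chr5:45669919-45700546, plus strand) had 9.64, 10.7 and 5.32 CPM in controls, from 357, 387 and 85 counts, and 35.4 and 34.7 CPM in knockouts. It rose 4.06-fold (95% interval 2.51 to 6.58), a log2 fold change of 2.02 (SE 0.291, adjusted p = 0.0211 by edgeR), and control replicate 3 was the lowest library. Ncapg shares 944 exonic bases with Lcorl on the opposite strand, and Lcorl had a log2 fold change of -0.06.

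Ncapd2 (ENSMUSG00000038252, mm10 chr6:125168007-125191701, minus strand) had 63.2, 79.4 and 66.9 CPM in controls and 132 and 142 CPM in knockouts. It rose by the adjusted p alone, at 1.96-fold (95% interval 1.55 to 2.47), and its log2 fold change of 0.97 (SE 0.140, adjusted p = 0.0211 by edgeR) was just under the fold threshold. Ncapd2 shares 237 exonic bases with Scarna10 on the same strand. Ncaph (ENSMUSG00000034906, mm10 chr2:127103809-127133954, minus strand) had 8.42, 15.4 and 6.01 CPM in controls and 31.0 and 31.1 CPM in knockouts. The knockout libraries were both above all controls, at a log2 fold change of 1.63 (SE 0.368, 95% interval 0.75 to 2.51), but the wide spread among controls left an adjusted p of 0.0787 by edgeR. DESeq2 gave Ncaph an adjusted p of 0.000946, at the low end of a range that reached 0.372 over the alternatives. Smc4 was the exception. This ATPase arm had 689, 583 and 659 CPM in controls and 609 and 581 CPM in knockouts, and the groups overlapped at a log2 fold change of -0.11 (95% interval -0.44 to 0.21, adjusted p = 0.758 by edgeR).

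The mouse calls depended on which libraries entered the fit. Of the 10 subunits, 0 were called without control replicate 1, 0 without knockout replicate 1 and 0 without knockout replicate 2, while 4 were called without control replicate 2 (Smc2, Ncapd2, Ncapg and Ncaph). Over all genes tested, 3.52% were called higher and 0.232% lower without control replicate 2. How far the sizes of the differences moved depended on the gene. Over the alternatives the log2 fold change ranged from 1.25 to 1.34 for Smc2 and from 0.89 to 1.09 for Ncapd2. The ranges were wider for Ncapg, at 1.78 to 2.22, and for Ncaph, at 1.374 to 2.105. The edgeR adjusted p for Smc2 reached 0.0938 and that for Ncapg reached 0.157 with a library left out. Over all genes, the same omissions left 6, 47 and 9 genes called higher, against 379 with all 5 libraries.

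**Figure D2:**
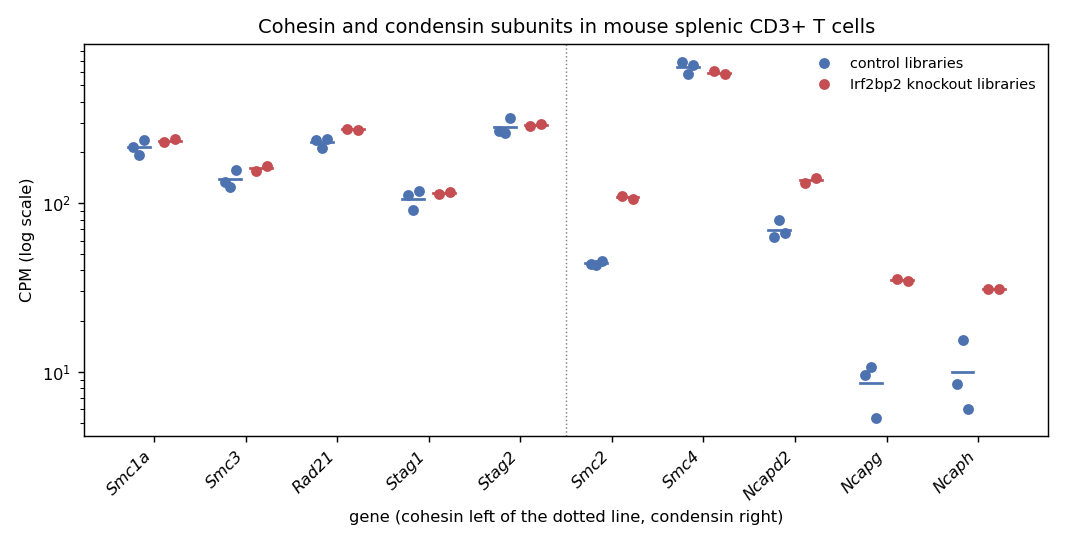
CPM of each subunit on a log axis in the 3 control (blue) and 2 Irf2bp2 knockout (red) libraries of mouse splenic CD3+ T cells, where each point is a library and each short line a group mean. The red points of Smc2, Ncapd2, Ncapg, Ncaph and, by less, Rad21 stand above the blue points, whereas the 2 groups overlap for Smc4, Smc1a, Smc3, Stag1 and Stag2.

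Marker lists also differed between these libraries. The 23 proliferation genes summed to 797 to 1125 CPM in controls and 2180 and 2468 CPM in knockouts, all 23 had a log2 fold change above 0 and 7 were called higher, with a median of 1.74. The median of the 5 condensin subunits was 1.30, against -0.02 for all genes tested. The erythroid list, given above, had a median of 2.63 over 9 genes, with Klf1, Gata1 and Ermap among those called. The T cell list summed to 3870 to 4365 CPM in controls and 2913 and 3134 CPM in knockouts, and the edgeR adjusted p of its 8 genes ranged from 0.0676 to 0.872. The plasma cell list summed to 411 to 1151 CPM in controls and 1135 and 1497 CPM in knockouts, with 1 of 6 genes called higher. B cell markers (25.5 to 216 against 24.2 and 77.0 CPM) and myeloid markers (29.9 to 331 against 57.0 and 101 CPM) overlapped between the groups. The part of these cells in the condensin values was not tested. In bulk RNA, more cells that express a gene and more RNA per cell cannot be told apart.

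**Figure D3:**
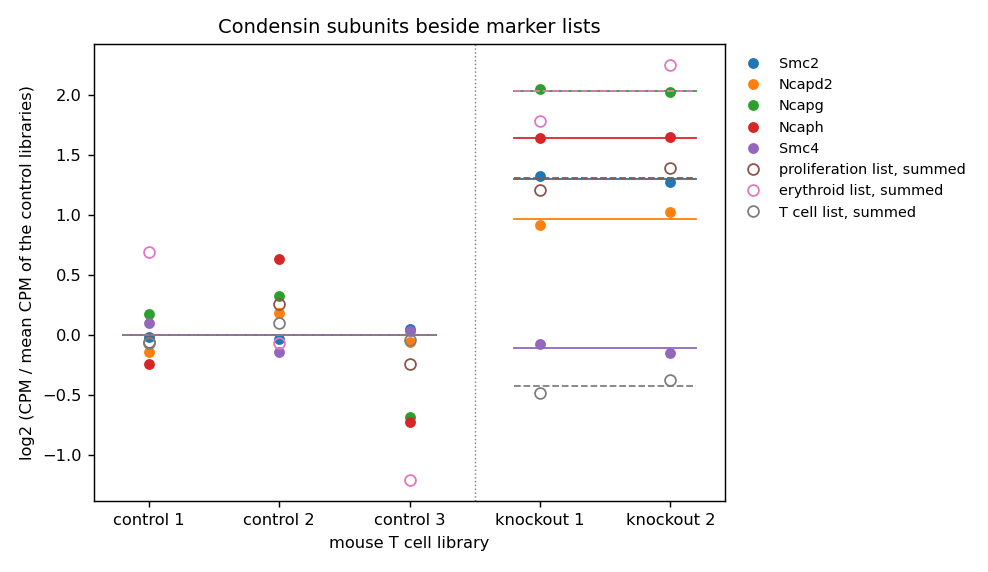
CPM of the 5 condensin subunits (filled points) and summed CPM of 3 marker lists (open points) in each mouse library, as log2 of the ratio to the mean of the 3 controls, with group means as lines. Smc2, Ncapd2, Ncapg, Ncaph and the proliferation and erythroid lists lie above 0 in both knockout libraries, while Smc4 and the T cell list lie below 0. In control 3, Ncapg, Ncaph and both the proliferation and the erythroid list are lowest.

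The promoters of the 4 condensin subunits whose knockout libraries were both above all controls are shown with words of 3 kinds in capitals, beside that of Smc3, for which the groups overlapped. Of the 10 mouse subunits, 7 had a window in the RefSeq table (GRCm38.p6, the build of mm10), spanning 250 bases before to 50 bases after the start of the gene. The words, searched on both strands, were those of E2F sites (TTTCCCGC, TTTGGCGC, TTTCGCGC or TTTGCCGC), of the cell cycle homology region known as CHR (TTTGAA or TTCGAA) and of the CCAAT box. No 2 kinds of word overlapped in these windows.
Smc2 promoter window, chr4:52438971-52439270 (plus strand): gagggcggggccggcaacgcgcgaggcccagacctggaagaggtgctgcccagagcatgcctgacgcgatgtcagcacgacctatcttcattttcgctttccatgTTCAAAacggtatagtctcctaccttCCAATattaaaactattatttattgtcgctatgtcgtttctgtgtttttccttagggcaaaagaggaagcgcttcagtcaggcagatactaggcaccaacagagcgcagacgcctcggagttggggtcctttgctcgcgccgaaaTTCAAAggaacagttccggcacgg
Ncapd2 promoter window, chr6:125191537-125191836 (minus strand): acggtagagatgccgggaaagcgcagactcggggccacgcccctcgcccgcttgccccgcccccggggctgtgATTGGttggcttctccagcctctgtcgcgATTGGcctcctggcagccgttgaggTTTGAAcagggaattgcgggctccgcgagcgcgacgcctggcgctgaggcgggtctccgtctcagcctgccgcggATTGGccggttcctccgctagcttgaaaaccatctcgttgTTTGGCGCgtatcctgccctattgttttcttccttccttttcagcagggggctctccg
Ncapg promoter window, chr5:45669675-45669974 (plus strand): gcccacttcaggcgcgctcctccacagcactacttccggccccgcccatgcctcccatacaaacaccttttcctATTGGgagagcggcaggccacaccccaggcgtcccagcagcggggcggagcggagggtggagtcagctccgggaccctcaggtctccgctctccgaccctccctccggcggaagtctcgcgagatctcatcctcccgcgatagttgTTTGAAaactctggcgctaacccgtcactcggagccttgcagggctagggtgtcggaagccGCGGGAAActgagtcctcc
Ncaph promoter window, chr2:127133905-127134204 (minus strand): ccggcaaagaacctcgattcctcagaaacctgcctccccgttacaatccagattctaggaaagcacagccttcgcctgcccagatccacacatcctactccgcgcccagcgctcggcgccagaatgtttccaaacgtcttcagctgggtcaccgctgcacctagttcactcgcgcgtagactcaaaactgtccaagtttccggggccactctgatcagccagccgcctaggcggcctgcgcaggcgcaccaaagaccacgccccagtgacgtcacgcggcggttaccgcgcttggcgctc
Smc3 promoter window, chr19:53600146-53600445 (plus strand): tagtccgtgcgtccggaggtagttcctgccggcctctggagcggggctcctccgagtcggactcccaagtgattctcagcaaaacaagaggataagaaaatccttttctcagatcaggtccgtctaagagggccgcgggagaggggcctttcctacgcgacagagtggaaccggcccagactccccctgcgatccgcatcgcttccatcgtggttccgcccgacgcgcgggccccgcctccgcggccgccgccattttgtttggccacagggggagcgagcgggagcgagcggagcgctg
An E2F word was found in 2.26% of all 32851 windows of 300 bases, a CHR word in 19.2%, CCAAT in 37.4%, and an E2F and a CHR word together in 0.317%. The windows of Ncapd2 and Ncapg held all 3 kinds, with the CHR word of Ncapg 30 bases before the start. That of Smc2 held 2 CHR words and CCAAT but no E2F word, and that of Ncaph held none. Among the cohesin windows, Smc1a and Stag1 each held an E2F word and CCAAT, and Smc3 held none. The presence of a word is a match of letters and says nothing of binding.

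The cohesin subunits differed little between knockout and control T cells. By edgeR's quasi-likelihood test, 0 of the 5 passed at an unadjusted p under 0.05, a level at which the share of all genes was not counted. DESeq2 called 0 of the 5, while over all genes tested it called 4.78% higher and 0.417% lower. Smc1a had 215, 194 and 236 CPM in controls and 230 and 240 CPM in knockouts, a log2 fold change of 0.13 (95% interval -0.19 to 0.45). Smc3 had 134, 125 and 157 CPM against 155 and 167 CPM, a log2 fold change of 0.22 (95% interval -0.12 to 0.56). In both SMC arms the groups overlapped. Rad21 was the exception, since the knockouts at 274 and 273 CPM were above the controls at 236, 213 and 239 CPM, yet its log2 fold change was 0.26 (95% interval -0.04 to 0.55, adjusted p = 0.374 by edgeR). Stag1 had 112, 91.0 and 117 CPM against 114 and 117 CPM, and Stag2 had 267, 261 and 318 CPM against 286 and 296 CPM. Their log2 fold changes were 0.12 (95% interval -0.23 to 0.47) and 0.05 (95% interval -0.29 to 0.38), and the groups overlapped. These intervals leave room for changes of up to 0.56 on the log2 scale. Over the 10 subunits, both knockout libraries were above all controls for 5 genes and below for 0, in a table where this was the case for 18.2% and 17.8% of all genes tested.

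Of the 32 partner genes, 30 were tested in the mouse cells, and 5 were called higher and 0 lower by edgeR. At an unadjusted p under 0.05, 9 were higher and 0 lower, and DESeq2 called 8 higher and 0 lower. Over all genes tested, edgeR called 2.47% higher and 0.111% lower, and DESeq2 called 4.78% and 0.417%. The share of all genes at an unadjusted p under 0.05 was not counted, here or for the other counts at that level. Ncapg2, a HEAT-repeat subunit of condensin II, had 13.9, 9.35 and 6.38 CPM in controls and 55.7 and 62.7 CPM in knockouts, a log2 fold change of 2.57 (SE 0.302, adjusted p = 0.0122 by edgeR). Espl1, the separase that cuts Rad21, had 5.78, 9.29 and 3.75 CPM against 32.3 and 35.0 CPM, a log2 fold change of 2.41 (SE 0.351, adjusted p = 0.0211 by edgeR). Esco2, the acetyltransferase that acts on Smc3 in S phase, had 4.08, 5.89 and 1.63 CPM against 19.9 and 22.8 CPM, a log2 fold change of 2.44 (SE 0.462, adjusted p = 0.0481 by edgeR). In each of these 3 genes both knockouts were several times above the highest control. Top2a, the mitotic topoisomerase, had 58.2, 72.8 and 39.4 CPM against 213 and 213 CPM, a log2 fold change of 1.91 (SE 0.242, adjusted p = 0.0147 by edgeR). Kif4, a chromosome-bound kinesin, had 6.69, 9.27 and 4.38 CPM against 21.5 and 24.3 CPM, a log2 fold change of 1.74 (SE 0.313, adjusted p = 0.0408 by edgeR).

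The other 25 partners tested in the mouse cells were not called by edgeR. The other condensin II subunits, Ncapd3 and Ncaph2, had log2 fold changes of 0.29 and 0.06, the loaders Nipbl and Mau2 had 0.20 and 0.11, and Ctcf, which positions cohesin loops, had 0.10. Pttg1, the securin that holds separase inactive, had a log2 fold change of -0.34 (adjusted p = 0.436 by edgeR). Of the 8 members of the SMC5/6 group, 0 were called by edgeR or DESeq2 and 0 had an unadjusted p under 0.05, at log2 fold changes of -0.49 to 0.35. Rec8 was the single partner past 0.5 in size in both tables, with 4.13, 3.60 and 2.50 CPM in mouse controls and 5.64 and 6.28 CPM in knockouts, a log2 fold change of 0.80 that was not called (adjusted p = 0.275 by edgeR). As with the subunits, 0 partners were called without control replicate 1, knockout replicate 1 or knockout replicate 2, and 8 were called without control replicate 2. That last fit called 3.52% of all genes tested higher and 0.232% lower. The median over the 30 partners was 0.17.

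**Figure D4:**
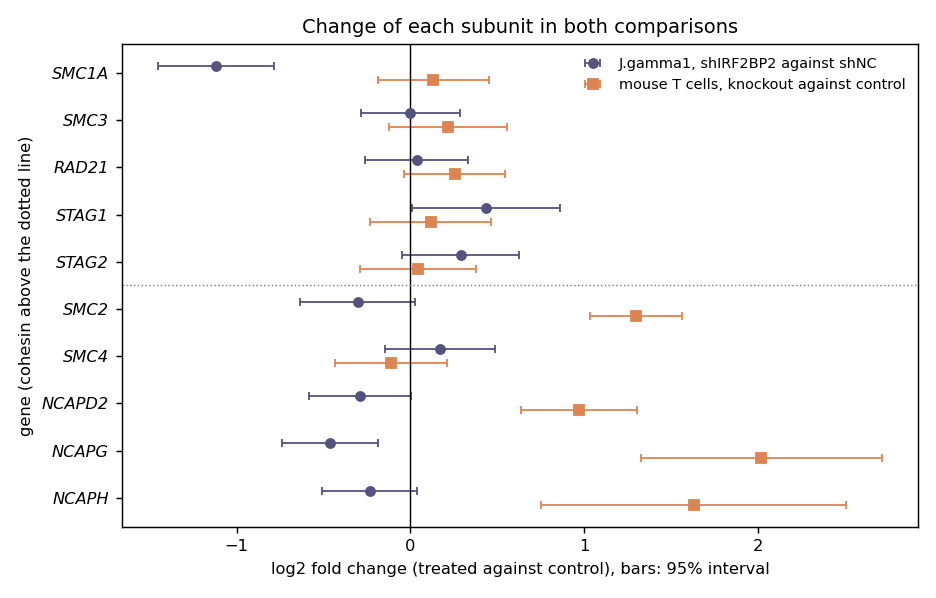
Log2 fold change of each subunit with its 95% interval in J.gamma1 cells (shIRF2BP2 against shNC, circles) and in mouse T cells (knockout against control, squares). SMC1A at -1.12 stands alone to the left among the circles, and SMC2, NCAPD2, NCAPG and NCAPH stand to the right among the squares, at 0.97 to 2.02.

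The levels of the subunits in control cells were compared per kilobase of merged exons, without a test. In mouse T cells, Smc4 was highest at 124 ± 10.5 CPM per kilobase (SD, n = 3), followed by Rad21 at 54.2 ± 3.30. Smc1a (37.2 ± 3.58) and Stag2 (34.1 ± 3.81) came next and did not differ beyond their spread, and Smc3 followed at 25.0 ± 3.03. Ncapd2 (11.1 ± 1.36), Stag1 (9.05 ± 1.18) and Smc2 (8.05 ± 0.254) were close together, the first differing from the third beyond their spread, and Ncaph (2.31 ± 1.13) and Ncapg (1.21 ± 0.404) were lowest and overlapped. With the other length, the transcript with the longest coding sequence, the sole change in this order was that Stag1 and Ncapd2 changed places. The SMC arms of condensin were thus measured at very unequal levels. The ratio of Smc4 to Smc2 per kilobase was 16.6, 14.3 and 15.2 in the controls and 5.81 and 5.73 in the knockouts, whose libraries did not overlap.

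In shNC cells the order was less certain. RAD21 was at 66.7 ± 0.240 CPM per kilobase (SD, n = 2), SMC4 at 62.1 ± 7.64, SMC2 at 59.6 ± 8.82 and NCAPG at 53.3 ± 3.21, and neighbours in this order did not differ beyond their spread. NCAPD2 was at 41.3 ± 4.05, STAG2 at 26.3 ± 4.15, SMC1A at 25.1 ± 4.02, NCAPH at 21.2 ± 1.62, STAG1 at 16.1 ± 3.80 and SMC3 at 10.9 ± 1.03. Of these, STAG2, SMC1A and NCAPH did not differ from the next in order beyond their spread. With the transcript of the longest coding sequence as length, RAD21 came to 259, STAG2 to 67.9 and SMC3 to 30.7 CPM per kilobase, so that the places of STAG2 and SMC3 depend on the annotation, while RAD21 was highest with either length. The ratio of SMC4 to SMC2 was 1.02 and 1.06 with shNC and 1.41 and 1.48 with shIRF2BP2, far from the ratios in mouse T cells. STAG2 was above STAG1 in every library of both species, at ratios of 1.35 to 1.74 in J.gamma1 cells and 3.41 to 4.09 in mouse T cells. Over the transcript with the longest coding sequence these ratios were 2.70 to 3.47 and 2.40 to 2.88, so how the species compare depends on the length used.

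**Figure D5:**
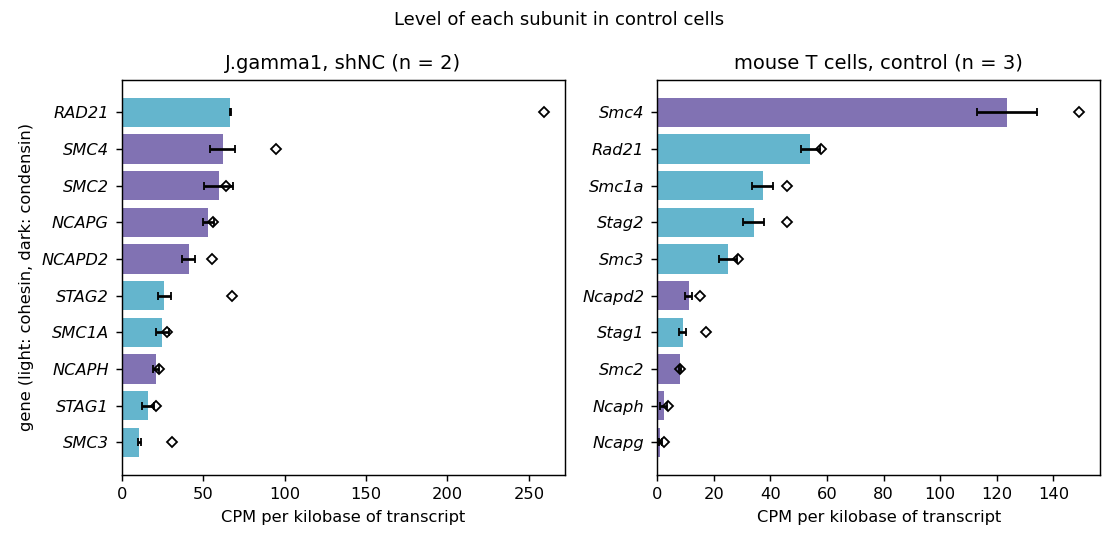
Mean level of each subunit in control cells, in CPM per kilobase of merged exons, for J.gamma1 cells (left) and mouse T cells (right), with SD as error bars. Open diamonds give the same means over the transcript with the longest coding sequence, which lie far to the right of the bars for RAD21, STAG2 and SMC3 in J.gamma1 cells, and the highest bar in mouse T cells is Smc4 at 124.

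Genes whose profile across libraries was most like the mean profile of each complex were found among those of at least 10 CPM, by the root mean square distance of centred log2 CPM. In mouse T cells, over 5 libraries and 9090 candidates, those nearest to condensin were Chst11, Arhgap11a, Pck2, Mcm5 and Gmnn, at distances of 0.00884 to 0.0877. Those nearest to cohesin were Thada, Ap5m1, Flywch1, Galnt1 and Fam120a, at 0.0185 to 0.0271. In J.gamma1 cells, over 4 libraries and 9745 candidates, the nearest to condensin were GUCY1B1, FANCI, NDUFAB1, TMEM98 and PLS3, and the nearest to cohesin were ITPRID2, THADA, TAF1D, TMEM131L and STOM. With so few libraries many genes share a profile, and the mean profile of cohesin in J.gamma1 cells combines the fall of SMC1A with positive log2 fold changes of STAG1 and STAG2.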

How the data were processed

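RNA-seq libraries of J.gamma1 cells and of sorted mouse T cells were analysed, grouped by their labels. The authors used HISAT2 2.2.0 (hg38 or mm10, per the submitters' processing notes) and StringTie, and the tables they deposited hold raw counts, as whole numbers, for each Ensembl gene. How coverage was turned into counts, the annotation and the use of strand are not given in the sources used here. Rows with an identifier in GENCODE 44 (human, 56105 rows) or M21 (mouse, 42462 rows) were kept. edgeR 4.0.16 in R 4.3.3 was fitted to each table by itself (filterByExpr, TMM factors, glmQLFit and glmQLFTest), with the group as the sole term. P-values were adjusted by Benjamini-Hochberg over all genes tested. Residual degrees of freedom were 2 for the human and 3 for the mouse table. Intervals are at 95% and do not rest on these alone, since each used the t quantile that matches the p-value of the quasi-likelihood F test. The SE is the size of the log2 fold change divided by the square root of F. Total counts per library were 26648204 to 31120236 for J.gamma1 cells and 16668577 to 37177523 for mouse cells, and replicates differed by more than sampling noise (chi-square per gene of at least 18.2). The fit was tested on simulated data. Motifs and 3′ UTR words were searched in Python 3.11.15.

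All 10 subunits were named, and of 32 partner genes those called in a table or past 0.5 in both. The members, gene lists, thresholds and tests were chosen with earlier results of these data known. As alternatives, the test was changed to DESeq2 1.42.0, the scaling to RLE or upper quartiles, and the filter to a minimum of 1 count in some library or of 10 throughout. Counts were also divided by 2, unannotated rows were added, fold thresholds were varied, a replicate block was fitted, and each library was left out. Transcript length for the levels per kilobase was added after the data were seen.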

Additional observations from a re-analysis of the deposited data

Results flagged for a closer look

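For 4 condensin subunits, both treated libraries were below both controls in J.gamma1 cells and above all 3 controls in mouse T cells. Among all genes tested, 28.7% were all below in J.gamma1 cells and 18.2% all above in mouse T cells. The log2 fold changes were -0.30 and 1.30 for SMC2 and Smc2, -0.29 and 0.97 for NCAPD2 and Ncapd2, -0.46 and 2.02 for NCAPG and Ncapg, and -0.24 and 1.63 for NCAPH and Ncaph. The difference between the tables was not tested, because species, cells and the means of removing IRF2BP2 all differ between them and cannot be told apart. SMC4 was not among these genes.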

How the results depend on the processing

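Of 120 values of the subunits in J.gamma1 cells under the alternatives, 107 kept their direction and their side of an adjusted p of 0.05, as did 118 of 130 in mouse T cells. In J.gamma1 cells, 2 subunits were called (SMC1A and NCAPG) with no fold threshold and with upper-quartile scaling, and 1 partner gene was called at a log2 threshold of 1 and with a filter that kept every gene with 1 count. With each J.gamma1 library left out in turn, 1 to 3 subunits and 0 to 5 partners were called. In mouse T cells, 0 to 4 subunits and 0 to 8 partners were called with each library left out, and DESeq2 called 8 partners. Directions turned only for values near 0. RAD21 was at -0.017 with upper-quartile scaling. SMC3 was at 0.0022 with the replicate block and between -0.095 and 0.094 with each library left out, positive without shNC replicate 1 and without shIRF2BP2 replicate 2. Mouse Stag2 was between -0.0027 and 0.14 with each library left out, and negative without knockout replicate 2. The cause of these shifts was not tested. Over all genes, DESeq2 called 733 higher and 64 lower in mouse T cells, where edgeR called 379 and 17, and in J.gamma1 cells the filter that kept every gene with 1 count left 319 higher and 396 lower, where the main filter gave 864 and 793. The replicate numbers in the labels are shared between groups but were not shown to pair the libraries, since the correlation of deviations between same-numbered libraries was 0.225 for J.gamma1 cells and 0.151 and -0.161 for mouse cells. With the replicate block, 1 subunit and 2 partners were called in J.gamma1 cells and 2 subunits and 6 partners in mouse T cells. STAG1 had an adjusted p of 0.0151 by edgeR under that block, at a log2 fold change of 0.45, which is below the fold threshold. Over all genes, 1293 were higher and 1174 lower in J.gamma1 cells and 407 and 35 in mouse cells. All subunits had at least 85 counts in each library, a minimum held by Ncapg in control replicate 3, the shallowest library. REC8 rested on 31 to 98 counts. The part of depth in these values was not tested.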
